A study of Homo sapiens with 2 samples.

Results

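The genes described here encode proteins of the spliceosome and the RNA-binding proteins that steer it. They were taken from the table of gene expression by symbol: protein-coding genes whose symbol begins with SNRP, SF3A, SF3B, PRPF, SRSF or HNRNP followed by a letter or number, and in addition U2AF1, U2AF2, TRA2A and TRA2B. HNRNPD, PRPF8 and hyphenated read-through genes were not included by this rule. It gave 74 genes of the 58174 in the table. The rule itself uses no measured value, but it was written with earlier results of these data known.

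The RNA came from PC3, an established human prostate cancer cell line. The study compared 1 library of PC3 cells transfected with an siRNA against POH1 with 1 library of PC3 cells transfected with a control siRNA. POH1, encoded by PSMD14, is a protease that strips ubiquitin chains from substrates at the lid of the proteasome. The design addresses which transcripts differ when POH1 is targeted, and for the siRNAs the sources used here give no sequence, dose or time after transfection.

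Introns are removed from a transcript by the spliceosome, which is built anew on each intron. U1 snRNP, a particle of small nuclear RNA and protein, pairs with the 5′ splice site, U2AF binds the 3′ splice site, and U2 snRNP with its SF3A and SF3B subcomplexes takes hold of the branch point. The tri-snRNP of U4, U6 and U5 then joins and is rearranged for catalysis. SR proteins and hnRNPs bind exons and introns and help decide which splice sites are used. Many of these genes adjust their own level by splicing a premature stop codon into their transcripts, which are then degraded by nonsense-mediated decay, and values per gene do not separate such isoforms.

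Each library was deposited as TPM, a length-corrected abundance with the same total in every library. Because TPM does not carry the number of reads, the depth behind each value is unknown and no counting error can be given. Each group held 1 library, so no difference below has a replicate check, and no test or p-value was computed. PSMD14 was at 35.1 TPM in POH1 siRNA cells and 50.9 TPM in control siRNA cells, or 69.0% of the control level. On the log2(TPM + 1) scale used below its difference was -0.52, inside the 1.5-fold threshold. Epithelial keratin 8 (KRT8) was at 556 TPM in POH1 siRNA cells and 517 TPM in control siRNA cells. The defining markers of blood cells, endothelium and fibroblasts were near 0, except PECAM1 and COL1A1. PECAM1 was at 3.88 TPM in POH1 siRNA cells and 4.90 TPM in control siRNA cells, and COL1A1 was at 47.8 TPM in POH1 siRNA cells and 30.9 TPM in control siRNA cells. COL1A2 and DCN, which mark fibroblasts with COL1A1, were under 0.2 TPM in both. In bulk RNA, fewer cells of a kind and less RNA per cell cannot be told apart.

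Several of these genes have close copies, and reads from identical stretches can be given to either copy by a counting program. The start of the coding sequence is shown for 2 pairs whose values are described below, as bases 1 to 150 from the start codon, 5′ to 3′, with the bases that differ within a pair in capitals. The sequences are from GENCODE release 29.
SNRPB: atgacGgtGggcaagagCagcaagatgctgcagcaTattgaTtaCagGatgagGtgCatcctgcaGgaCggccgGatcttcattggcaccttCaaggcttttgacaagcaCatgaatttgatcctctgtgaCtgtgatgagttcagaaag
SNRPN: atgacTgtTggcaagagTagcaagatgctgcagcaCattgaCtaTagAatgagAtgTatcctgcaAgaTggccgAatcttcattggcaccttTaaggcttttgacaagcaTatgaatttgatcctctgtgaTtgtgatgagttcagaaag
HNRNPH1: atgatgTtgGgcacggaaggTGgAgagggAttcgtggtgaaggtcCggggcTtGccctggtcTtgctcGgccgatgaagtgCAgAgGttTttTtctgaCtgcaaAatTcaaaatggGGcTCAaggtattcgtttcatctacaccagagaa
HNRNPH2: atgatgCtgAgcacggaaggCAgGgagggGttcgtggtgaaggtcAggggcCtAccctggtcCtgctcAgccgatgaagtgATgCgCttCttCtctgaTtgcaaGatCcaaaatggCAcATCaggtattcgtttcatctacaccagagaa
SNRPB on chromosome 20 and SNRPN on chromosome 15 differ at 15 of these bases and at 129 of 723 over the whole coding sequence, with a longest identical stretch of 32 bases. HNRNPH1 on chromosome 5 and HNRNPH2 on chromosome X differ at 25 of these bases and at 167 of 1350 over the whole coding sequence, with a longest identical stretch of 50 bases.

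Of the 74 genes, 69 reached a mean of 1 TPM, taken over the POH1 siRNA and control siRNA libraries, the level required for a difference to be counted. The 5 others were SRSF12 and the hnRNP C-like genes HNRNPCL1, HNRNPCL2, HNRNPCL3 and HNRNPCL4, all at or near 0 in both libraries. The 69 genes were abundant: their median was 90.6 TPM in POH1 siRNA cells and 94.6 TPM in control siRNA cells, and the median gene among them stood at percentile 88.0 of all genes that passed the same filter. Their summed level was 8446 TPM, or 0.845% of the total, in POH1 siRNA cells and 8855 TPM, or 0.885% of the total, in control siRNA cells. HNRNPA2B1, which packages nuclear transcripts, had the highest level of the set in both libraries, at 443 TPM in POH1 siRNA cells and 603 TPM in control siRNA cells.

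**Figure D1:**
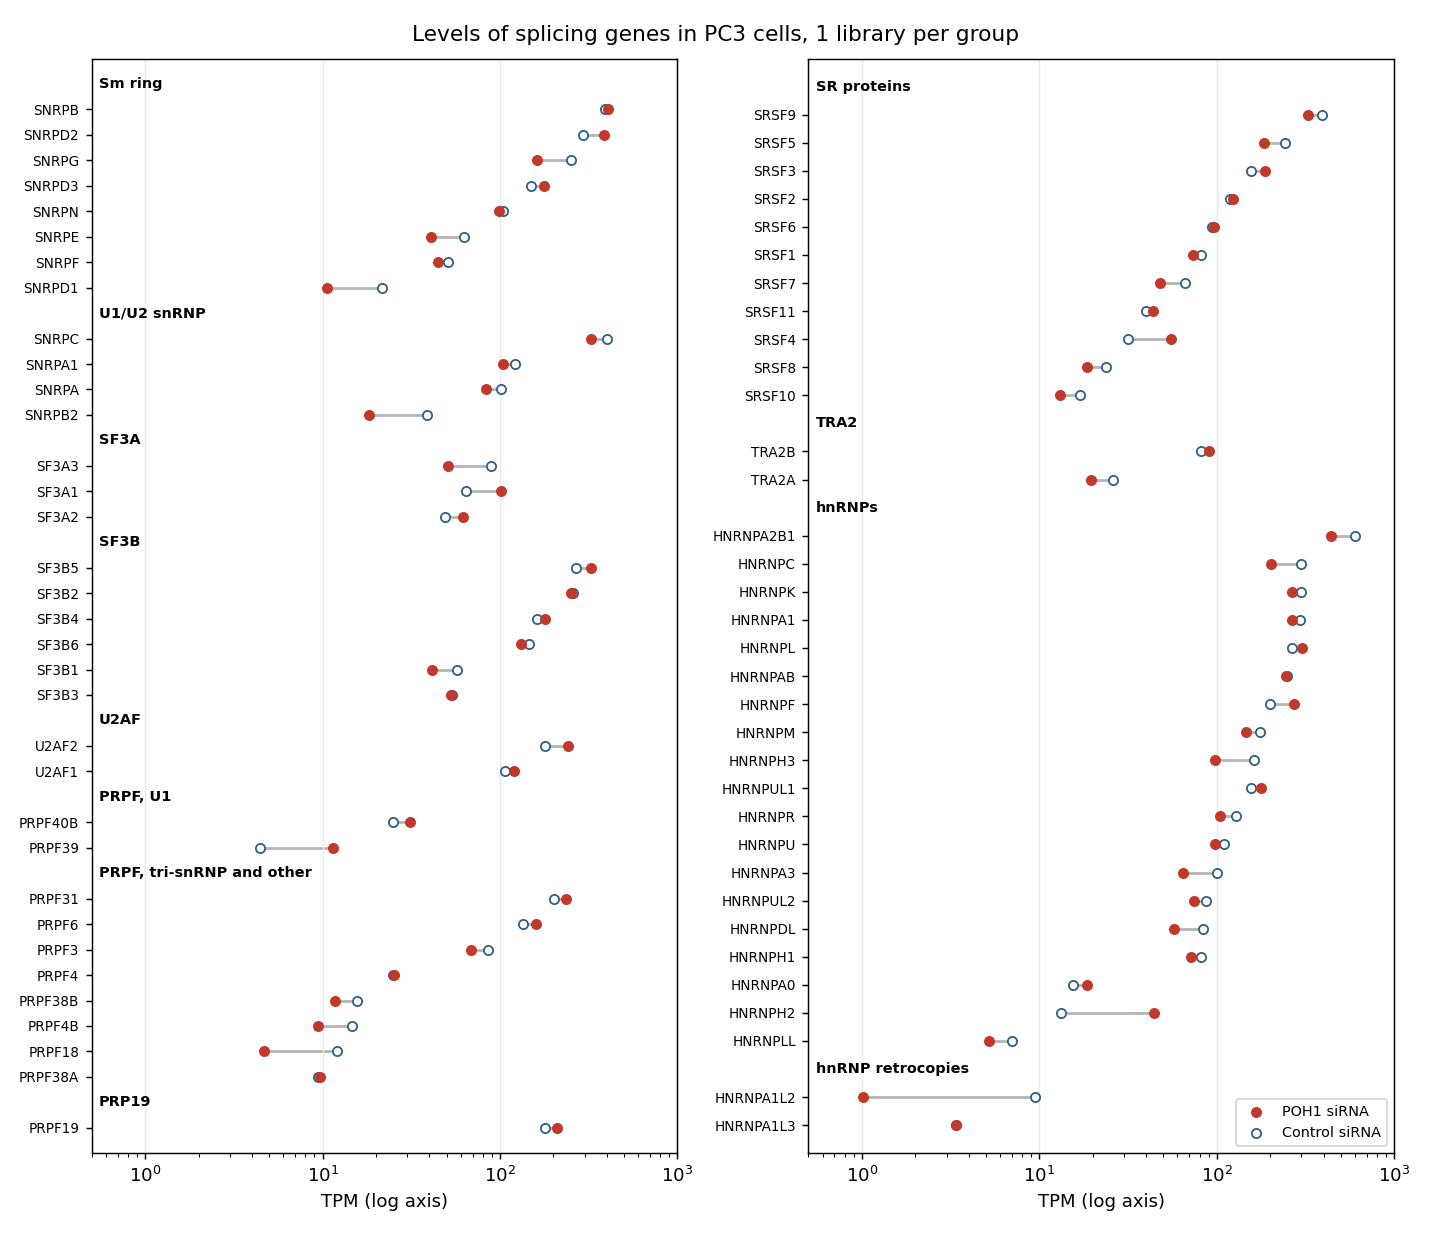
Level of each splicing gene reported here, in TPM on a log axis, with the POH1 siRNA library and the control siRNA library as separate points and the genes grouped by complex. Most pairs of points lie close together, and the widest gaps are those of HNRNPA1L2, at 1.01 TPM in POH1 siRNA cells and 9.47 TPM in control siRNA cells, and HNRNPH2, at 44.0 TPM in POH1 siRNA cells and 13.2 TPM in control siRNA cells.

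Differences were computed as log2(TPM + 1) in POH1 siRNA cells minus log2(TPM + 1) in control siRNA cells, a scale that understates the fold of low genes. Of the 69 genes, 4 were higher in POH1 siRNA cells by at least 1.5-fold on this scale, 9 were lower and 56 were within it. That is 5.80% higher and 13.0% lower, while among all 15008 genes that passed the filter 10.2% were higher and 8.88% were lower. At 2-fold, 2 of the genes were higher (HNRNPH2 and PRPF39) and 3 were lower (SNRPB2, PRPF18 and HNRNPA1L2), against 2.15% and 2.93% of all genes. The median difference was -0.15 over the 69 genes and 0.12 over all genes. Individually, 27 of the 69 lay above 0 and 42 below, and 47 lay below the median of all genes. Scaling the libraries to a common median brought the median of all genes to -0.01 and that of the 69 genes to -0.30, so some genes just above 0, such as SNRPB, change sign with it.

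**Figure D2:**
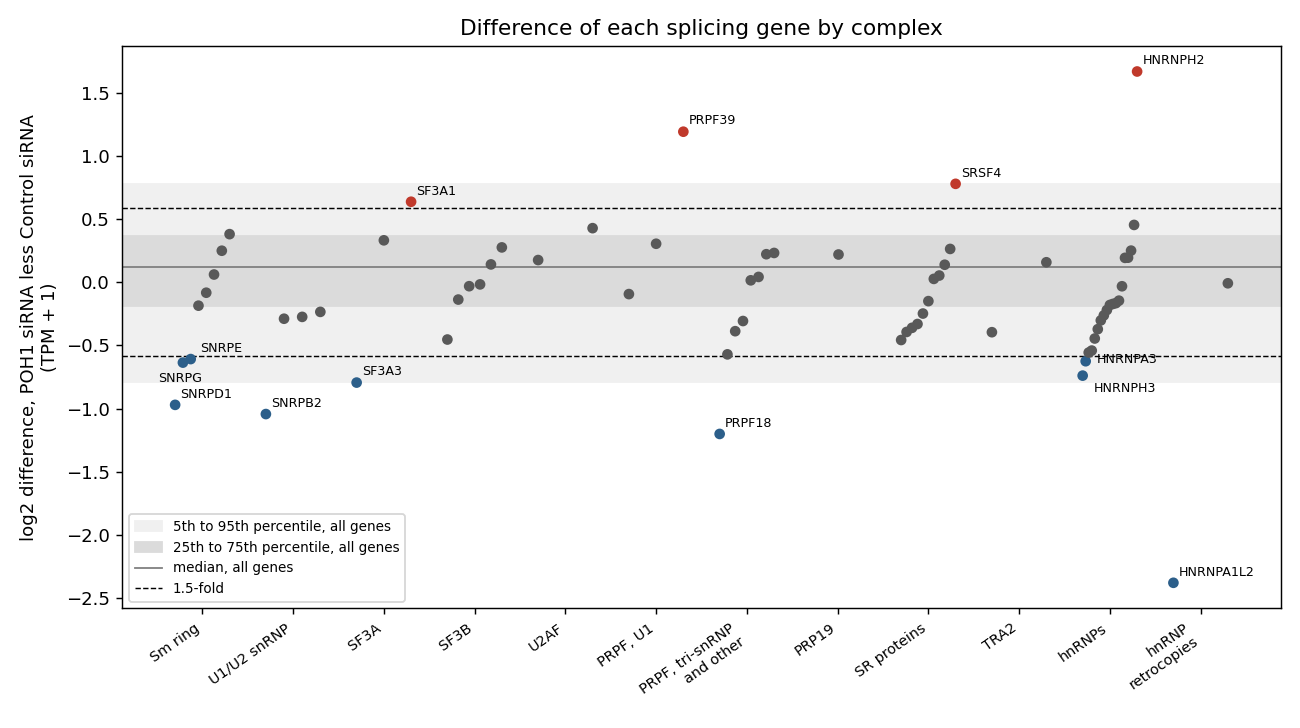
Difference of each splicing gene between POH1 siRNA and control siRNA cells on the log2(TPM + 1) scale, grouped by complex, with dashed lines at 1.5-fold, a solid line at the median of all genes and shading for the spread of all genes. The points of the 4 U1 and U2 snRNP genes with an SNRP symbol all lie below 0, while those of U2AF lie above it, and HNRNPH2 at 1.67 and HNRNPA1L2 at -2.38 are the extremes.

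The Sm proteins form a ring around the small nuclear RNAs of U1, U2, U4 and U5. Of the 8 Sm genes, 0 were higher in POH1 siRNA cells at 1.5-fold and 3 were lower: SNRPD1, SNRPE and SNRPG. Over all genes 10.2% were higher and 8.88% were lower. These 3 genes have a GC content under 45%, and of all genes up to 45% GC 20.1% were lower. With the GC adjustment described below, SNRPE and SNRPG came within 1.5-fold. The median difference of the 8 Sm genes was -0.13. Their summed level was 1323 TPM in POH1 siRNA cells and 1325 TPM in control siRNA cells, since SNRPD2, SNRPD3 and SNRPB had higher levels. SNRPD1 (ENSG00000167088), which encodes SmD1, was at 10.6 TPM in POH1 siRNA cells and 21.6 TPM in control siRNA cells, a difference of -0.97. It was the least abundant Sm gene in both libraries. SNRPD2, whose product SmD2 pairs with SmD1 in the ring, was at 383 TPM in POH1 siRNA cells and 294 TPM in control siRNA cells, so these partners differed in opposite directions. SNRPE (ENSG00000182004) was at 40.8 TPM in POH1 siRNA cells and 62.7 TPM in control siRNA cells, a difference of -0.61. SNRPG (ENSG00000143977) was at 162 TPM in POH1 siRNA cells and 253 TPM in control siRNA cells, a difference of -0.64. SmE and SmG join the ring together with SmF, whose gene SNRPF was within 1.5-fold, at 44.4 TPM in POH1 siRNA cells and 50.7 TPM in control siRNA cells.

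The proteins of the SmB and SmD3 pair showed values on either side of 0. SNRPB, the most abundant Sm gene, was at 406 TPM in POH1 siRNA cells and 389 TPM in control siRNA cells. SNRPD3 was at 178 TPM in POH1 siRNA cells and 149 TPM in control siRNA cells. It shares exon sequence on the same strand with GGT1 in the annotation, and the sum of both differed by 0.31. SNRPN encodes SmN, a form of SmB that is most abundant in brain, and was at 98.4 TPM in POH1 siRNA cells and 104 TPM in control siRNA cells. SNURF, which is read from the same transcript as SNRPN, was at 16.1 TPM in POH1 siRNA cells and 8.79 TPM in control siRNA cells, and the sum of SNRPN and SNURF was 114 TPM in POH1 siRNA cells and 113 TPM in control siRNA cells. The sum of the copies SNRPB and SNRPN was 504 TPM in POH1 siRNA cells and 493 TPM in control siRNA cells. The genes were also split by the subcomplexes in which the ring is built, after the values were seen. The median difference was 0.06 for SNRPB, SNRPN and SNRPD3, -0.30 for SNRPD1 and SNRPD2, and -0.61 for SNRPE, SNRPF and SNRPG. GC adjustment subtracts the running median of genes of similar GC content and adds back the median of all genes of at least 5 TPM, 0.14. Adjusted values are therefore to be set against the adjusted median of all genes, 0.15, rather than 0. With GC adjustment the medians of the subcomplexes were closer together, at -0.05, -0.12 and -0.20. SNRPD1 and SNRPD2 had opposite signs, and their sum was higher in POH1 siRNA cells, at 394 TPM against 316 TPM in control siRNA cells. The sign was not fixed for all of these genes and medians. With GC adjustment SNRPB was at -0.05 and SNRPF at 0.22, and the median of SNRPB, SNRPN and SNRPD3 was below 0 with either scaling. The median GC content was 40.2% for the E, F and G genes and 51.5% for the B and D3 genes.

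The 4 other genes with an SNRP symbol encode proteins of U1 or U2 snRNP, and 1 of them was lower by 1.5-fold, as were 8.88% of all genes. All 4 lay below 0, with a median of -0.28. This direction was not shared by every protein of these particles: SNRNP70, which encodes U1-70K and lies outside the symbols used here, was at 207 TPM in POH1 siRNA cells and 182 TPM in control siRNA cells. Their summed level was 532 TPM in POH1 siRNA cells and 661 TPM in control siRNA cells. SNRPB2 (ENSG00000125870) encodes U2-B″, which binds a stem-loop of U2 RNA, and was at 18.2 TPM in POH1 siRNA cells and 38.7 TPM in control siRNA cells, a difference of -1.04 and a 2.12-fold lower TPM. Its partner on that stem-loop, U2-A′, is encoded by SNRPA1, at 104 TPM in POH1 siRNA cells and 122 TPM in control siRNA cells. Thus SNRPB2 stood apart in size from its partner's gene while sharing its direction. SNRPA, which encodes U1-A and is related to SNRPB2, was at 83.4 TPM in POH1 siRNA cells and 101 TPM in control siRNA cells. SNRPC encodes U1-C, which steadies the pairing of U1 with the 5′ splice site, and was at 326 TPM in POH1 siRNA cells and 399 TPM in control siRNA cells. After adjustment for GC content SNRPA1 was at 0.02 and the other 3 were below 0. All 4 were under the adjusted median of all genes, 0.15.

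SF3A is a heterotrimer of U2 snRNP, and its 3 genes split between directions: 1 was higher at 1.5-fold, 1 was lower and 1 was within it. Over all genes 10.2% were higher and 8.88% were lower. SF3A1 (ENSG00000099995) was at 101 TPM in POH1 siRNA cells and 64.6 TPM in control siRNA cells, a difference of 0.64. SF3A3 (ENSG00000183431) was at 50.7 TPM in POH1 siRNA cells and 88.7 TPM in control siRNA cells, a difference of -0.79. SF3A2, which like SF3A3 binds the SF3A1 scaffold, was at 61.7 TPM in POH1 siRNA cells and 48.9 TPM in control siRNA cells. The order of the subunits therefore differed between libraries: SF3A1 had the highest level in POH1 siRNA cells, and SF3A3 had the highest in control siRNA cells. The difference of SF3A1 was 0.49 to 0.57, under the threshold, with either scaling, with TPM recomputed without the most abundant genes, or with GC adjustment. SF3A1 also overlaps exon sequence of CCDC157 on the opposite strand, which was at 4.17 TPM in POH1 siRNA cells and 3.52 TPM in control siRNA cells. The sources used here do not say whether strand was used in counting.

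SF3B holds the branch point in U2 snRNP, and none of the 6 genes with an SF3B symbol differed by 1.5-fold, with a median of -0.02 and differences between -0.45 and 0.28. SF3B1 is the subunit that clamps the branch point and is recurrently mutated in blood cancers. It was at 41.4 TPM in POH1 siRNA cells and 57.1 TPM in control siRNA cells, the lowest difference of the complex at -0.45. With GC adjustment the difference of SF3B1 was -0.04, against a median of 0.15 for all genes. SF3B5, the most abundant, was at 326 TPM in POH1 siRNA cells and 270 TPM in control siRNA cells. The remaining SF3B2, SF3B3, SF3B4 and SF3B6 differed by no more than 0.14 in size. SF3B2 was at 251 TPM in POH1 siRNA cells and 256 TPM in control siRNA cells. SF3B3 was at 53.2 TPM in POH1 siRNA cells and 53.9 TPM in control siRNA cells. The U2AF heterodimer was on the higher side with both genes within 1.5-fold. U2AF1, which reads the AG at the end of the intron, was at 120 TPM in POH1 siRNA cells and 106 TPM in control siRNA cells. U2AF2, which binds the polypyrimidine tract, was at 242 TPM in POH1 siRNA cells and 180 TPM in control siRNA cells, a difference of 0.43. The difference of U2AF1 was 0.17, and the median of all genes was 0.12. Genes of similar GC content had a median of -0.03 for U2AF1 and 0.31 for U2AF2. With median scaling U2AF1 was at 0.02 and U2AF2 at 0.28.

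The genes with a PRPF symbol are named for yeast pre-mRNA processing mutants and belong to several particles. Of the 3 whose products are linked to U1 snRNP, 1 was higher by 1.5-fold, as were 10.2% of all genes. PRPF39 (ENSG00000185246) was at 11.4 TPM in POH1 siRNA cells and 4.42 TPM in control siRNA cells, a difference of 1.19 and a 2.57-fold higher TPM. PRPF39 overlaps exon sequence of FKBP3 on the opposite strand, and FKBP3 was at 55.8 TPM in POH1 siRNA cells and 53.4 TPM in control siRNA cells. PRPF40B, a homologue of a yeast U1 protein, was within 1.5-fold, at 31.1 TPM in POH1 siRNA cells and 25 TPM in control siRNA cells.

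Among the 8 other PRPF genes, apart from PRPF19, 1 was lower by 1.5-fold (12.5%) and 0 were higher, against 8.88% and 10.2% of all genes. The median of these 8 genes, -0.15, became 0.04 with GC adjustment, against 0.12 and 0.15 over all genes. PRPF18 (ENSG00000165630), a factor of the second catalytic step, was at 4.70 TPM in POH1 siRNA cells and 12.1 TPM in control siRNA cells, a difference of -1.20 and a 2.58-fold lower TPM. In the annotation 42.0% of its exon bases are shared on the same strand with an unnamed protein-coding gene (ENSG00000282246). That gene was at 3.15 TPM in POH1 siRNA cells and 1.5 TPM in control siRNA cells, and the sum of both differed by -0.72, past 1.5-fold in the same direction. Genes of the tri-snRNP were nearer to 0. PRPF31, which holds U4 and U6 together and is mutated in retinitis pigmentosa, was at 234 TPM in POH1 siRNA cells and 201 TPM in control siRNA cells. PRPF6, which bridges the U5 and U4/U6 particles, was at 159 TPM in POH1 siRNA cells and 135 TPM in control siRNA cells. PRPF3 was at 68.9 TPM in POH1 siRNA cells and 85.4 TPM in control siRNA cells. Its partner on U4/U6, PRPF4, was at 25.2 TPM in POH1 siRNA cells and 24.9 TPM in control siRNA cells, a difference of 0.01.

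PRPF4B, a kinase that acts on the tri-snRNP, lay just inside the threshold of 0.58, at -0.57. Its level was 9.47 TPM in POH1 siRNA cells and 14.6 TPM in control siRNA cells. PRPF38A was at 9.67 TPM in POH1 siRNA cells and 9.37 TPM in control siRNA cells, and the related PRPF38B was at 11.7 TPM in POH1 siRNA cells and 15.6 TPM in control siRNA cells. PRPF38A belongs to the spliceosome before its activation. PRPF19, the ubiquitin ligase that gives its name to the PRP19 complex of the activated spliceosome, was at 209 TPM in POH1 siRNA cells and 179 TPM in control siRNA cells.

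SR proteins carry domains rich in arginine and serine and mostly promote the use of nearby splice sites. Of the 12 SRSF genes 11 passed the filter, and 1 was higher by 1.5-fold (9.09%) and 0 were lower, against 10.2% and 8.88% of all genes. The median difference of these 11 genes was -0.15, and 0.02 with GC adjustment, against 0.12 and 0.15 over all genes. The summed level of the SRSF genes was 0.117% of the POH1 siRNA library and 0.126% of the control siRNA library. SRSF4 (ENSG00000116350) was at 55.2 TPM in POH1 siRNA cells and 31.8 TPM in control siRNA cells, a difference of 0.78. SRSF5 and SRSF6 are its closest relatives in domain structure, and neither differed by 1.5-fold. SRSF5 was at 185 TPM in POH1 siRNA cells and 243 TPM in control siRNA cells. SRSF6 was at 96.4 TPM in POH1 siRNA cells and 94.6 TPM in control siRNA cells. SRSF9, the most abundant of the family, was at 328 TPM in POH1 siRNA cells and 390 TPM in control siRNA cells. SRSF7, an exporter of spliced RNA, had the lowest difference of the family, -0.46, at 47.9 TPM in POH1 siRNA cells and 66.2 TPM in control siRNA cells. SRSF3, a small relative of SRSF7, was instead on the higher side, at 187 TPM in POH1 siRNA cells and 156 TPM in control siRNA cells.

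The founding SR protein genes were close to 0. SRSF1 was at 73.8 TPM in POH1 siRNA cells and 82.0 TPM in control siRNA cells. It shares 56.6% of its exon bases on the same strand with an unnamed protein-coding gene. That gene was at 3.66 TPM in POH1 siRNA cells and 8.88 TPM in control siRNA cells. The sum of SRSF1, that gene and a named pseudogene differed by -0.23. SRSF2, which encodes SC35, was at 124 TPM in POH1 siRNA cells and 119 TPM in control siRNA cells. MFSD11 overlaps 36.7% of the SRSF2 exon bases on the opposite strand. Its level was 27.3 TPM in POH1 siRNA cells and 17.7 TPM in control siRNA cells. The less abundant SRSF8, SRSF10 and SRSF11 were also within 1.5-fold. SRSF8, an intron-poor relative of SRSF2, was at 18.7 TPM in POH1 siRNA cells and 23.7 TPM in control siRNA cells. SRSF10, a splicing repressor when dephosphorylated, was at 13.0 TPM in POH1 siRNA cells and 17.0 TPM in control siRNA cells. SRSF11 was at 43.8 TPM in POH1 siRNA cells and 39.7 TPM in control siRNA cells. The TRA2 genes, homologues of the fly sex-determination factor transformer 2, did not share a direction. TRA2A was at 19.5 TPM in POH1 siRNA cells and 26 TPM in control siRNA cells. TRA2B was at 90.6 TPM in POH1 siRNA cells and 81.1 TPM in control siRNA cells. Each of the 11 SRSF genes that passed has at least 1 transcript annotated as a target of nonsense-mediated decay, and 38 of the 69 splicing genes do (55.1%), against 43.3% of protein-coding genes.

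The hnRNPs coat nascent transcripts, and many silence nearby splice sites. Of the 19 hnRNP genes, apart from retrocopies, 1 was higher by 1.5-fold (5.26%) and 2 were lower (10.5%), against 10.2% and 8.88% of all genes. The median difference of these 19 genes was -0.18, and 0.04 with GC adjustment, against 0.12 and 0.15 over all genes. Their summed level was 0.296% of the POH1 siRNA library and 0.333% of the control siRNA library. The gene that was higher, HNRNPH2, and a gene that was lower, HNRNPH3, belong to the hnRNP H and F family, whose members bind runs of G. HNRNPH2 (ENSG00000126945) was at 44.0 TPM in POH1 siRNA cells and 13.2 TPM in control siRNA cells, a difference of 1.67 and a 3.34-fold higher TPM. HNRNPH3 (ENSG00000096746) was at 97.3 TPM in POH1 siRNA cells and 163 TPM in control siRNA cells, a difference of -0.74. HNRNPH1, the sequence pair of HNRNPH2 shown above, was at 71.4 TPM in POH1 siRNA cells and 81.0 TPM in control siRNA cells. HNRNPF, the most abundant of the family, was at 273 TPM in POH1 siRNA cells and 200 TPM in control siRNA cells, a difference of 0.45. The 4 genes together summed to 486 TPM in POH1 siRNA cells and 457 TPM in control siRNA cells, so their sum moved less than HNRNPH2 or HNRNPH3 alone.

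HNRNPH2 lies on chromosome X downstream of RPL36A, a ribosomal protein gene, and the annotation holds a read-through gene that joins them. The read-through gene, RPL36A-HNRNPH2, was at 196 TPM in POH1 siRNA cells and 21.0 TPM in control siRNA cells, a 9.33-fold higher TPM. RPL36A itself was lower, at 653 TPM in POH1 siRNA cells and 1247 TPM in control siRNA cells. The read-through gene and HNRNPH2 share 362 exon bases on the same strand, 16.3% of the exon bases of HNRNPH2, and reads in them can be given to either. Their sum was 240 TPM in POH1 siRNA cells and 34.2 TPM in control siRNA cells, a difference of 2.78. With RPL36A added, the sum was 893 TPM in POH1 siRNA cells and 1281 TPM in control siRNA cells, a difference of -0.52. The direction of this sum is opposite to that of HNRNPH2, but the sum is mostly RPL36A. RPL36A alone made up 653 of the 893 TPM in POH1 siRNA cells and 1247 of the 1281 TPM in control siRNA cells. The sum therefore shows little of HNRNPH2, and gene values do not show how much of the read-through signal is a joined transcript.

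**Figure D3:**
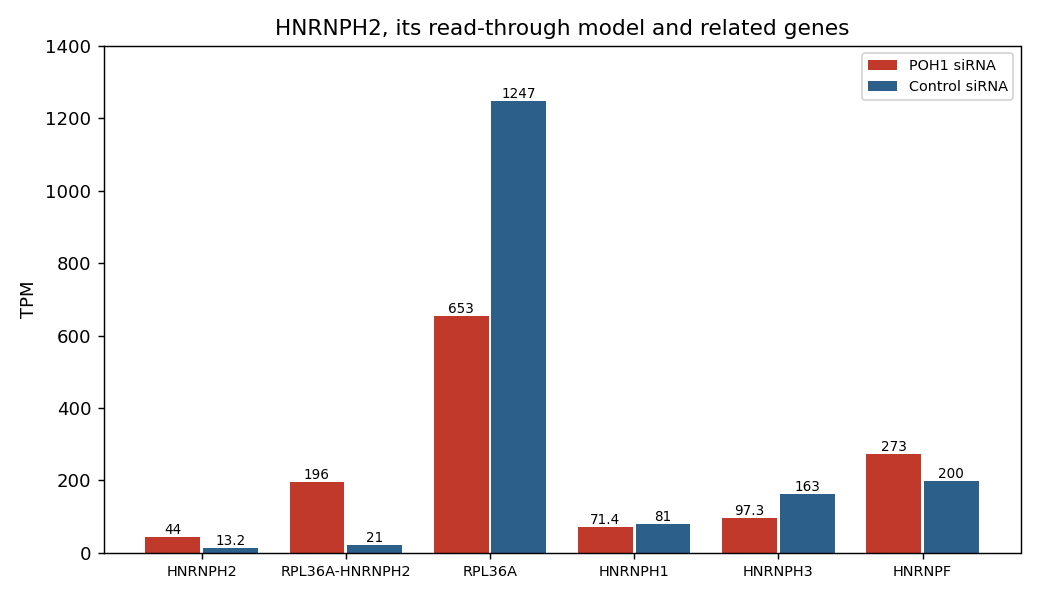
TPM of HNRNPH2, the read-through gene RPL36A-HNRNPH2, RPL36A and the family members HNRNPH1, HNRNPH3 and HNRNPF in POH1 siRNA and control siRNA cells, as bars of 1 library each. HNRNPH2 and the read-through gene are higher in POH1 siRNA cells, at 44.0 and 196 TPM there, against 13.2 and 21.0 TPM in control siRNA cells. RPL36A is lower, at 653 TPM in POH1 siRNA cells and 1247 TPM in control siRNA cells.

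The hnRNP A and B genes, whose products bind UAG motifs and include the major packaging proteins, were mostly on the lower side before GC adjustment. With it HNRNPA1 was at 0.14, HNRNPA2B1 at -0.01, HNRNPAB at -0.08 and HNRNPA3 at -0.26, against a median of 0.15 for all genes. HNRNPA3 (ENSG00000170144) was at 64.9 TPM in POH1 siRNA cells and 101 TPM in control siRNA cells, a difference of -0.63, which became -0.53 when summed with its 16 named pseudogenes and an overlapping small RNA gene. HNRNPA2B1 differed by -0.45, with the values given above. HNRNPA1, an abundant silencer of exons, was at 267 TPM in POH1 siRNA cells and 296 TPM in control siRNA cells. HNRNPAB was at 244 TPM in POH1 siRNA cells and 250 TPM in control siRNA cells. HNRNPA0 was on the higher side, at 18.5 TPM in POH1 siRNA cells and 15.4 TPM in control siRNA cells, and its difference of 0.25 passed 1.5-fold with GC adjustment, at 0.62. That value includes the all-gene median of 0.14 that the adjustment adds back, without which HNRNPA0 would be within 1.5-fold.

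Genes of the other hnRNPs lay within 1.5-fold. HNRNPC, which binds runs of U and keeps U2AF from cryptic sites, was closest to the threshold at -0.56, with 204 TPM in POH1 siRNA cells and 300 TPM in control siRNA cells. HNRNPDL, a relative of HNRNPD, differed by -0.54, with 57.6 TPM in POH1 siRNA cells and 84.2 TPM in control siRNA cells. HNRNPK, which binds runs of C, was at 266 TPM in POH1 siRNA cells and 299 TPM in control siRNA cells. HNRNPL, which binds CA repeats, was on the higher side, at 303 TPM in POH1 siRNA cells and 265 TPM in control siRNA cells. Its low-level relative HNRNPLL, known for the splicing of CD45 in T cells, was at 5.23 TPM in POH1 siRNA cells and 7.06 TPM in control siRNA cells. HNRNPM was at 146 TPM in POH1 siRNA cells and 175 TPM in control siRNA cells. HNRNPR was at 104 TPM in POH1 siRNA cells and 129 TPM in control siRNA cells. HNRNPU, a nuclear scaffold protein, was at 97.8 TPM in POH1 siRNA cells and 110 TPM in control siRNA cells. Its relatives HNRNPUL1 and HNRNPUL2 went to either side of 0. HNRNPUL1 was at 178 TPM in POH1 siRNA cells and 156 TPM in control siRNA cells. HNRNPUL2 was at 74.4 TPM in POH1 siRNA cells and 86.8 TPM in control siRNA cells. HNRNPUL2 also has a read-through gene, HNRNPUL2-BSCL2, at 10.5 TPM in POH1 siRNA cells and 5.80 TPM in control siRNA cells.

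HNRNPA1L2 and HNRNPA1L3 are retrocopies of HNRNPA1, copies made from its processed RNA. HNRNPA1L2 (ENSG00000139675) was at 1.01 TPM in POH1 siRNA cells and 9.47 TPM in control siRNA cells, a 9.35-fold lower TPM and the lowest difference of all 69 genes at -2.38. HNRNPA1L3 was at 3.38 TPM in POH1 siRNA cells and 3.41 TPM in control siRNA cells. Since HNRNPA1L2 is a close copy and HNRNPA1 was far more abundant in both libraries, the value of HNRNPA1L2 is uncertain. Summed with HNRNPA1, HNRNPA1L3, the 74 named pseudogenes of HNRNPA1 and an overlapping gene, the difference was -0.20, close to the -0.15 of HNRNPA1 alone. These copies made up 98.5% of the sum, so the sum shows little of HNRNPA1L2 itself. Sharing of exon sequence touches other genes too: 8 of the 69 share it on the same strand with another gene of at least 1 TPM, and 19 on the opposite strand.

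The differences ran with GC content, the share of G and C in a gene's transcripts. The median GC content was 45.2% over the 69 genes, against 51.0% over all genes. Across the 69 genes the Spearman correlation between GC content and difference was 0.52, and across 14983 genes it was 0.42; these genes come from the same pair of libraries and are not independent. Of the 32 splicing genes with a GC content up to 45%, 2 were higher and 6 were lower (18.8%), with a median of -0.37. Of all genes in this class 20.1% were lower and 4.87% were higher, with a median of -0.17. Of the 15 splicing genes between 45% and 50%, 1 was higher and 3 were lower (20%), with a median of -0.15. Of all genes in this class 8.58% were higher and 10.4% were lower, with a median of 0.00. Of the 22 splicing genes above 50%, 1 was higher (4.55%) and 0 were lower, with a median of 0.19. Of all genes above 50%, 13.4% were higher and 2.87% were lower, with a median of 0.24. The share that was lower was thus near that of all genes in the lowest class and above it in the middle class, where it rests on 3 genes, and the median lay below that of all genes in each class.

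**Figure D4:**
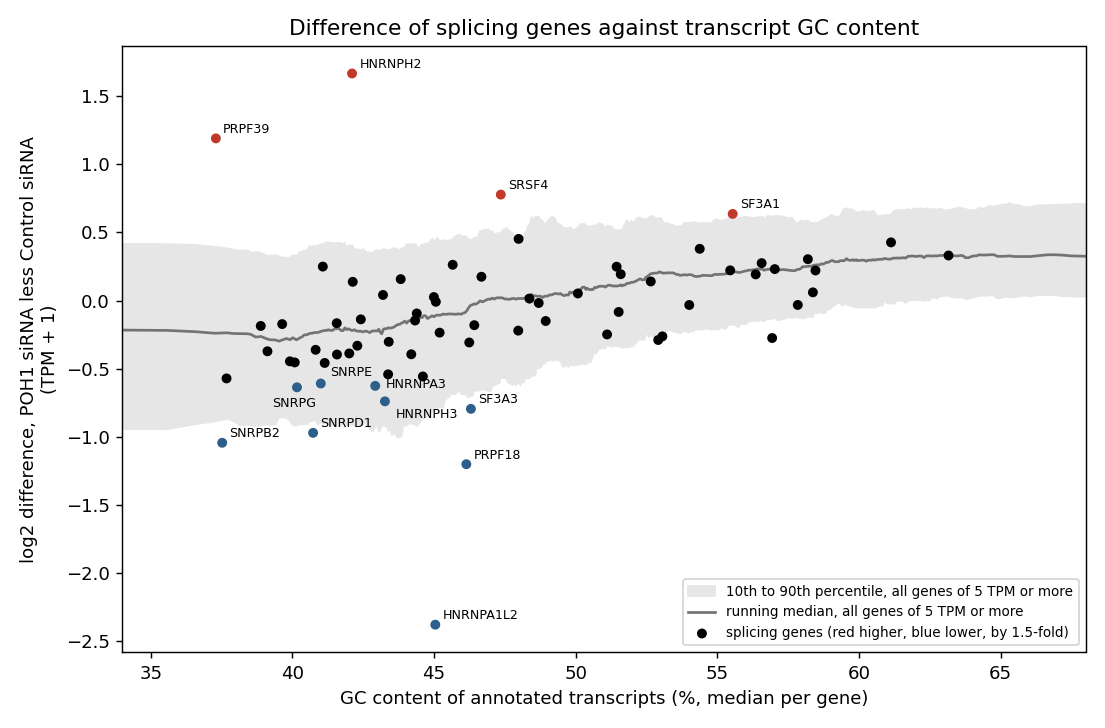
Difference between POH1 siRNA and control siRNA cells on the log2(TPM + 1) scale against GC content in percent, for the 69 splicing genes as points and the running median of genes ordered by GC content as a line, with shading for the spread of all genes of at least 5 TPM around it. Most splicing genes under 45% GC lie below 0, with a median of -0.37, and those above 50% have a median of 0.19.

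For GC adjustment the running median over genes of similar GC content was subtracted. The median of all genes of at least 5 TPM, 0.14, was then added back. Adjusted values therefore center on that median and not on 0, while the 1.5-fold threshold was still taken from 0. On this scale the median of the 69 genes was 0.04, against 0.15 for all genes, so the set still lay below them. By count 4 were higher (5.80%) and 5 were lower (7.25%), against 12.6% and 5.19% of all genes. HNRNPH2 stood at 2.03 after this adjustment, PRPF39 at 1.57 and SRSF4 at 0.90. On the lower side SNRPB2 stood at -0.66, SNRPD1 at -0.59, SF3A3 at -0.62 and PRPF18 at -0.99. SNRPE, SNRPG, HNRNPA3 and HNRNPH3 came within 1.5-fold, at -0.24, -0.20, -0.26 and -0.39. The part of GC content in these differences was not tested.

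Other genes of splicing, listed by function with earlier results of these data known, were counted at the same threshold. Of 60 core spliceosome genes outside the symbols above, 3 were higher (5%) and 13 were lower (21.7%), with a median of -0.11. Over all genes 10.2% were higher and 8.88% were lower, with a median of 0.12. With GC adjustment the median was -0.04 for the list and 0.15 for all genes. LSM3 and LSM2, subunits of the ring on U6 RNA, had the lowest differences of that list. LSM3 was at 9.16 TPM in POH1 siRNA cells and 30.6 TPM in control siRNA cells, a 3.34-fold lower TPM. LSM2 was at 65.2 TPM in POH1 siRNA cells and 180 TPM in control siRNA cells, a 2.77-fold lower TPM. The highest differences were those of SNRNP27 and DDX42. SNRNP27, a tri-snRNP protein, was at 38.9 TPM in POH1 siRNA cells and 19.2 TPM in control siRNA cells. DDX42, a helicase of the U2 particle, was at 106 TPM in POH1 siRNA cells and 52.8 TPM in control siRNA cells. Taken from this list after their values were seen, the 8 LSM genes held 4 that were lower (LSM2, LSM3, LSM5 and LSM6) and 0 that were higher, with a median of -0.67 and a median GC content of 47.0%. The most abundant of them, LSM4 and LSM7, were nearer to 0, with LSM4 at 265 TPM in POH1 siRNA cells and 249 TPM in control siRNA cells.

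Of 14 genes that assemble or methylate the Sm ring, 0 were higher and 2 were lower (14.3%), against 10.2% and 8.88% of all genes, with a median of -0.02. These were GEMIN6, at 10.8 TPM in POH1 siRNA cells and 18.9 TPM in control siRNA cells, and CLNS1A, which delivers Sm proteins to the assembly machinery, at 29.9 TPM in POH1 siRNA cells and 49.2 TPM in control siRNA cells. PRMT5, the methyltransferase of Sm proteins, was at 222 TPM in POH1 siRNA cells and 174 TPM in control siRNA cells. SMN1, at 43.4 TPM in POH1 siRNA cells and 38.3 TPM in control siRNA cells, has the near-identical copy SMN2, so its own value is uncertain. Of 9 exon junction complex genes 0 were higher and 1 was lower (11.1%), RBM8A, the Y14 core subunit, at 124 TPM in POH1 siRNA cells and 265 TPM in control siRNA cells. PNN had the next lowest difference, at 58.6 TPM in POH1 siRNA cells and 75.2 TPM in control siRNA cells. The highest differences of this list were those of RNPS1 and EIF4A3. RNPS1 was at 98.0 TPM in POH1 siRNA cells and 87.7 TPM in control siRNA cells. EIF4A3, the helicase at the core of the complex, was at 172 TPM in POH1 siRNA cells and 164 TPM in control siRNA cells.

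Of 8 kinases and importers of SR proteins, 0 were higher and 1 was lower (12.5%), against 10.2% and 8.88% of all genes. Of all genes with a GC content up to 45%, 20.1% were lower. The lower kinase was CLK1, with a GC content of 37.2%, at 6.75 TPM in POH1 siRNA cells and 10.7 TPM in control siRNA cells. Its relative CLK4 had the next lowest difference, at 3.64 TPM in POH1 siRNA cells and 5.18 TPM in control siRNA cells. The highest differences were those of CLK3 and DYRK1A, also kinases. CLK3 was at 63.8 TPM in POH1 siRNA cells and 47.2 TPM in control siRNA cells. DYRK1A was at 5.32 TPM in POH1 siRNA cells and 4.34 TPM in control siRNA cells. None of the 8 minor spliceosome genes differed by 1.5-fold on the log2(TPM + 1) scale. SNRNP25, SNRNP35 and SNRNP48 of this list were also counted in the core list. SNRNP25 had the lowest difference, -0.58, just inside the threshold, at 37.8 TPM in POH1 siRNA cells and 56.9 TPM in control siRNA cells. ZRSR2, a relative of U2AF1, was next, at 19.0 TPM in POH1 siRNA cells and 24.3 TPM in control siRNA cells. The highest differences of this list were small, 0.12 for ZMAT5 and 0.05 for PDCD7. ZMAT5 was at 71.3 TPM in POH1 siRNA cells and 65.7 TPM in control siRNA cells. PDCD7 was at 9.57 TPM in POH1 siRNA cells and 9.23 TPM in control siRNA cells. Of 33 other splicing regulators that passed the filter, 5 were higher and 5 were lower (15.2% each), against 10.2% and 8.88% of all genes, with a median of -0.04. With GC adjustment this median was 0.17, against 0.15 over all genes. SRRM1 and MBNL2 had the highest differences. SRRM1, an SR-related coactivator, was at 86.1 TPM in POH1 siRNA cells and 37.2 TPM in control siRNA cells. MBNL2, a muscleblind regulator, was at 6.29 TPM in POH1 siRNA cells and 2.30 TPM in control siRNA cells. RBM39, which is related to U2AF2, had the lowest difference, at 84.0 TPM in POH1 siRNA cells and 185 TPM in control siRNA cells. TAF15, an RNA-binding protein also found with the transcription factor TFIID, was next, at 63.6 TPM in POH1 siRNA cells and 121 TPM in control siRNA cells.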

How the data were processed

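RNA of PC3 cells was extracted with Trizol and made into libraries with an mRNA kit, per the labels' protocols. CASAVA, HISAT2 and build hg19 were named, per the submitters' processing notes. Not given in the sources used here are versions, annotation, quantification tool, use of strand and depth. The authors deposited TPM per gene for 58174 Ensembl identifiers, with sums of 999968 TPM in POH1 siRNA cells and 999955 TPM in control siRNA cells. Symbols were found for 57392 identifiers by name table, and 57836 were in GENCODE release 29, used for gene types, GC content, shared exons and sequences. It annotates GRCh38, so no coordinates are printed.

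Differences were log2(TPM + 1) in POH1 siRNA minus control siRNA, over genes with a mean of at least 1 TPM. Genes at or past 1.5-fold on that scale were called higher or lower, and a fold is the ratio of TPM. With 1 library per group there is no test and no paired fit. Named genes were those past 1.5-fold, each complex's most abundant and most different genes, those with copies or overlaps, and the 2 highest and lowest of each other list. Where further genes of the set are given, this is for completeness; some values and sequences are not reported here. The genes and lists were chosen with earlier results of these data known. The 9 alternatives were pseudocounts of 0.1 and 5, no filter, a filter at 5 TPM, median scaling, trimmed mean scaling, TPM without mitochondrial and the 50 most abundant genes, GC adjustment by the running median over 501 genes, and sums with copies. GC adjustment subtracted this running median from each difference and added back the median over all genes of at least 5 TPM. Scripts used Python 3.11.15 with pandas 2.3.3, numpy 2.4.6, scipy 1.17.1, Biopython 1.88 and matplotlib 3.10.9, and were tested on simulated data.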

Additional observations from a re-analysis of the deposited data

How the results depend on the processing

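No paired analysis was possible because each group had 1 library. The median difference of the splicing genes, -0.15 as reported, was -0.147 with a pseudocount of 0.1, -0.143 with a pseudocount of 5, -0.148 with a filter at 5 TPM and -0.0889 with no filter. It was -0.297 with median scaling, -0.290 with trimmed mean scaling, -0.217 without mitochondrial and the 50 most abundant genes, and 0.0418 with GC adjustment. The median of all genes, 0.12 as reported, was -0.01 with either scaling and 0.15 with GC adjustment. The count of genes lower by 1.5-fold, 9 as reported, was 15 with median scaling, 15 with trimmed mean scaling and 5 with GC adjustment, while the share of all genes that was lower, 8.88% as reported, was 12.6%, 12.4% and 5.19%. The count was 8 to 12 under the other 5 alternatives that recount the set. The count higher was 3 or 4 throughout. Of the genes past 1.5-fold, the share that was higher was 30.8% for the splicing genes and 53.5% for all genes; with median scaling it was 16.7% and 32.6%, with trimmed mean scaling 16.7% and 33.5%, without the most abundant genes 20% and 44.1%, and with GC adjustment 44.4% and 70.8%. HNRNPH2, PRPF39, SRSF4, PRPF18, SF3A3, SNRPB2 and SNRPD1 kept their calls under every alternative that gave them a value. For HNRNPH2 the sum with copies added only its read-through gene, itself higher and 79.1% of the sum, so it shows little of HNRNPH2. With RPL36A also added, the difference was -0.52, but RPL36A was most of that sum, which again shows little of HNRNPH2. HNRNPA1L2 lost its call when summed with copies, but the copies were 98.5% of that sum, which cannot show how HNRNPA1L2 itself differed. SNRPE lost its call with GC adjustment and, at -0.56, with a pseudocount of 5. With either scaling HNRNPA2B1, HNRNPC, HNRNPDL, PRPF4B, SF3B1 and SRSF7 passed the threshold as lower. The causes were not tested. Unknown depth limits the genes of a few TPM most.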
